A study of Mus musculus with 18 samples.

Results

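Kruppel-like factors are transcription factors with zinc fingers at their C-terminal end, and 10 of them were read in cells sorted from mouse glomeruli. The genes are Klf2, Klf3, Klf4, Klf5, Klf6, Klf7, Klf9, Klf10, Klf13 and Klf15, which are 10 of the 22909 distinct gene symbols on the arrays. Each gene was taken from the transcript cluster, the unit by which the array measures a gene, whose symbol field held exactly its name. Klf3 and Klf9 were each named on 2 clusters, and the cluster with the higher mean signal over all arrays was used. Both Klf9 clusters also carry the symbol Gm9971, so their signal cannot be assigned to Klf9 alone. A further 15 genes of the Klf and Sp families were read the same way for comparison.

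The study sorted and profiled 3 glomerular cell types from Cd2ap mutants, a mouse model of focal segmental glomerulosclerosis in which an adaptor protein of the podocyte slit diaphragm is lost. The 18 arrays fall into 6 groups of 3. Mutant mice were Cd2ap-/- (B6.129X1-Cd2ap tm1Shaw/J) and the controls are labelled wild type, all at 5 weeks of age. In both genotypes cells were sorted by green fluorescence from a transgene particular to each cell type, such as Tie2-GFP for endothelial cells and Meis1-GFP for mesangial cells. The cell type therefore cannot be told apart from the transgene line. The mesangial controls are titled control, with a genotype field that says wild type, and their columns bear 1 plus and 1 minus sign, which usually marks a heterozygote, whereas the other controls are titled wild type and bear only plus signs. They are called wild type here by the genotype field, and whether they carried 1 mutant allele cannot be told from the labels. Signals are array intensities on a linear scale after the authors' normalization. Array medians ranged from 62.8 to 71.6, and arrays of 1 group correlated at r between 0.967 and 0.992 over all clusters on the log2 scale.

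Marker genes were read to check the sorted cells. The 6 podocyte markers summed to between 10207 and 12866 in the podocyte arrays of both genotypes, and the 7 endothelial markers to between 14786 and 17105 in the endothelial arrays. Endothelial markers were also present in the wild type podocyte arrays, where they summed to between 4224 and 5625, against 656 to 2484 in the mutant podocyte arrays. The 6 mesangial markers summed to between 5341 and 8477 in the mesangial arrays of both genotypes. They were present in podocyte arrays as well, at 2291 to 3098 in the wild type and 755 to 2024 in the mutant arrays. Wild type mesangial array C stood apart, with summed endothelial markers of 7527 against 2244 and 2640 in arrays A and B, summed podocyte markers of 3433 against 723 and 898, and summed erythroid markers of 7227 against 559 and 271. Results for the Kruppel-like factors that use this array are given with and without it where it moves a call, and genes of other lists were fitted without it only in the genotype comparison of mesangial cells, a choice made after seeing the data. Cd2ap itself had log2 differences, mutant minus wild type, of -0.31 in mesangial cells, -0.23 in podocytes and 0.18 in endothelial cells. None reached a 1.5-fold change or an adjusted p under 0.05, and only the mesangial one had an unadjusted p under 0.05, so the genotype rests on the labels.

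**Figure D1:**
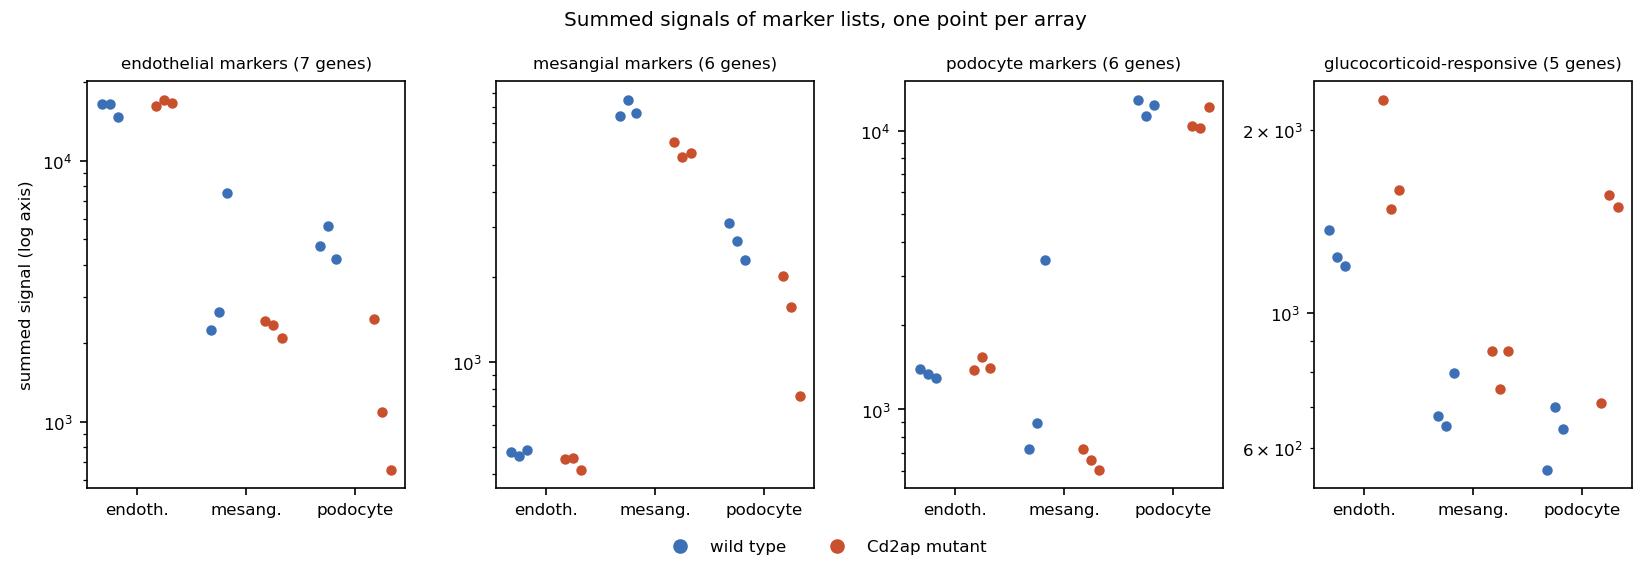
Summed signals of 3 marker lists and of 5 glucocorticoid-responsive genes, with 1 point per array on a log axis, wild type in blue and Cd2ap mutant in red. Wild type mesangial array C lies above arrays A and B in the endothelial and podocyte panels, and the endothelial sums of the 3 mutant podocyte arrays lie below those of the wild type podocyte arrays.

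Kruppel-like factors bind GC-rich and CACCC sequences in promoters and, depending on the member and its cofactors, activate or repress transcription. Klf2 and Klf4 maintain the quiescent, anticoagulant state of endothelium under blood flow and are induced through the kinases Map3k3, Map2k5 and Mapk7 and the transcription factors of the MEF2 family. Klf6 is known as an early response gene of injured tissue, Klf10 is induced by TGF-beta, and Klf9 and Klf15 are induced by glucocorticoids, with Klf15 known as a differentiation factor of podocytes. Klf3 acts largely as a repressor that recruits CtBP proteins.

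The promoters of 5 of the 6 members called between wild type cell types are shown, no promoter sequence having been found for Klf10. They are shown because Kruppel-like factors bind GC-rich and CACCC sequences in promoters. The sequences are the 250 bases before the RefSeq start of each gene, in the direction of transcription, on build GRCm38.p6. Capitals mark CACCC on either strand (read as GGGTG where it lies on the other strand), the E-box CACGTG, and a match to the MEF2 consensus on either strand. Klf2 lies at chr8:72318812-72319061 on the plus strand, Klf3 at chr5:64803271-64803520 on the plus strand, Klf4 at chr4:55532476-55532725 on the minus strand, Klf7 at chr1:64121390-64121639 on the minus strand and Klf6 at chr13:5861239-5861488 on the plus strand.
Klf2: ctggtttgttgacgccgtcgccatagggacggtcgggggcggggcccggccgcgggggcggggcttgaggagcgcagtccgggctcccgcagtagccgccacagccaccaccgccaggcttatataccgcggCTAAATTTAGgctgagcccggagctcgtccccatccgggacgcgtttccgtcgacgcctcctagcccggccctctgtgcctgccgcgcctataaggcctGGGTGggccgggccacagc
Klf3: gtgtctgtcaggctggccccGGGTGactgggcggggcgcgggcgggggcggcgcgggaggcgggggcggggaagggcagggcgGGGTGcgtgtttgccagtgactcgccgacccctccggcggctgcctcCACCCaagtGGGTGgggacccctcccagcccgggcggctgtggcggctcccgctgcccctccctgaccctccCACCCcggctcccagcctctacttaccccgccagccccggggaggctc
Klf4: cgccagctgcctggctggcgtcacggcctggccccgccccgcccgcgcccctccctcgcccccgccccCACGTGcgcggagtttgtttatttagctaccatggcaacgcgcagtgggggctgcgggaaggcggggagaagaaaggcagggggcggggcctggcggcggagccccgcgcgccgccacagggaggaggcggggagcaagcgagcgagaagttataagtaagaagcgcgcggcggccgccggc
Klf7: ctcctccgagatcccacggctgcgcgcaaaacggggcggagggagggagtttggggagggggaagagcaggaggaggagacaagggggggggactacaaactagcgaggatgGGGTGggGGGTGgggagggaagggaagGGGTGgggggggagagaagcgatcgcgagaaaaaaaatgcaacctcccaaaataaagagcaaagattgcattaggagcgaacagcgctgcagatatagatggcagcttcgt
Klf6: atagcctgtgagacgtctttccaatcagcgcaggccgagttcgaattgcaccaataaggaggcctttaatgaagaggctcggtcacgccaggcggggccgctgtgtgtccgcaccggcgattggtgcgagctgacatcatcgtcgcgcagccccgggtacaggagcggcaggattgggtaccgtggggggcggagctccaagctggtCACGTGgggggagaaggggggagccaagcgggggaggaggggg

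A promoter sequence was found for 8 of the 10 members, the exceptions being Klf5 and Klf10. CACCC was present in 6 of the 8, against 52% of the 32851 promoters searched over the same length. The Klf3 promoter held 5 copies, that of Klf7 held 3, and those of Klf2, Klf9, Klf13 and Klf15 held 1 each. The Klf4 and Klf6 promoters had no CACCC and instead each held 1 CACGTG, a motif that 6.02% of all promoters carry and that occurs 2 times in the Klf15 promoter. The Klf2 promoter alone of the 8 matched the MEF2 consensus, which 2.92% of all promoters do, with the match beginning 118 bases before the start. GGGCGG, the core of the element bound by Sp1, was found in 7 of the 8, against 32.7% of all promoters. The member promoters were GC-rich, from 59.2% in Klf7 to 78.4% in Klf3, whereas the median of all promoters was 52.4%. AGAACA, part of the element bound by the glucocorticoid receptor, was found in 0 of the 8 and in 16.1% of all promoters. CCAAT was found in 4 of the 8, against 33.8%, and TATAAA and the CArG box in 0 of the 8, against 12.4% and 1.47%. All motifs were searched on both strands. A match describes the letters only and does not show a bound site.

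Signals were compared between wild type cell types first, to establish where each factor is expressed in arrays labelled wild type. The mesangial controls may have carried 1 mutant allele, which comparisons with them cannot separate from cell type. The 9 wild type arrays were fitted together with limma on the log2 scale, and a difference was called at a Benjamini-Hochberg adjusted p under 0.05 over all 12537 clusters tested. Of the 10 members 9 reached a signal of 100 in at least 1 wild type array and were tested, Klf15 being left out. Relative to endothelial cells, 5 of the 9 (Klf2, Klf3, Klf4, Klf7 and Klf10) were lower in podocytes, whereas 21.9% of all clusters were lower. The same 5 were lower in mesangial cells, where 15.9% of all clusters were lower, and Klf6 was higher there, as were 16.1% of all clusters. Between podocytes and mesangial cells only Klf3 was called among the 9 tested, against 27.9% of all clusters called in either direction. Klf5, Klf10 and Klf13 reached the minimum only through endothelial arrays, which favours a lower value elsewhere, and so the fit was also read with no signal minimum, where all 10 members were tested. The same 5 were then lower in podocytes, against 10% of all clusters, and the same 5 in mesangial cells, against 8.79%, with Klf6 higher there, against 7.49%. In bulk RNA fewer cells of a type and less RNA per cell cannot be told apart.

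**Figure D2:**
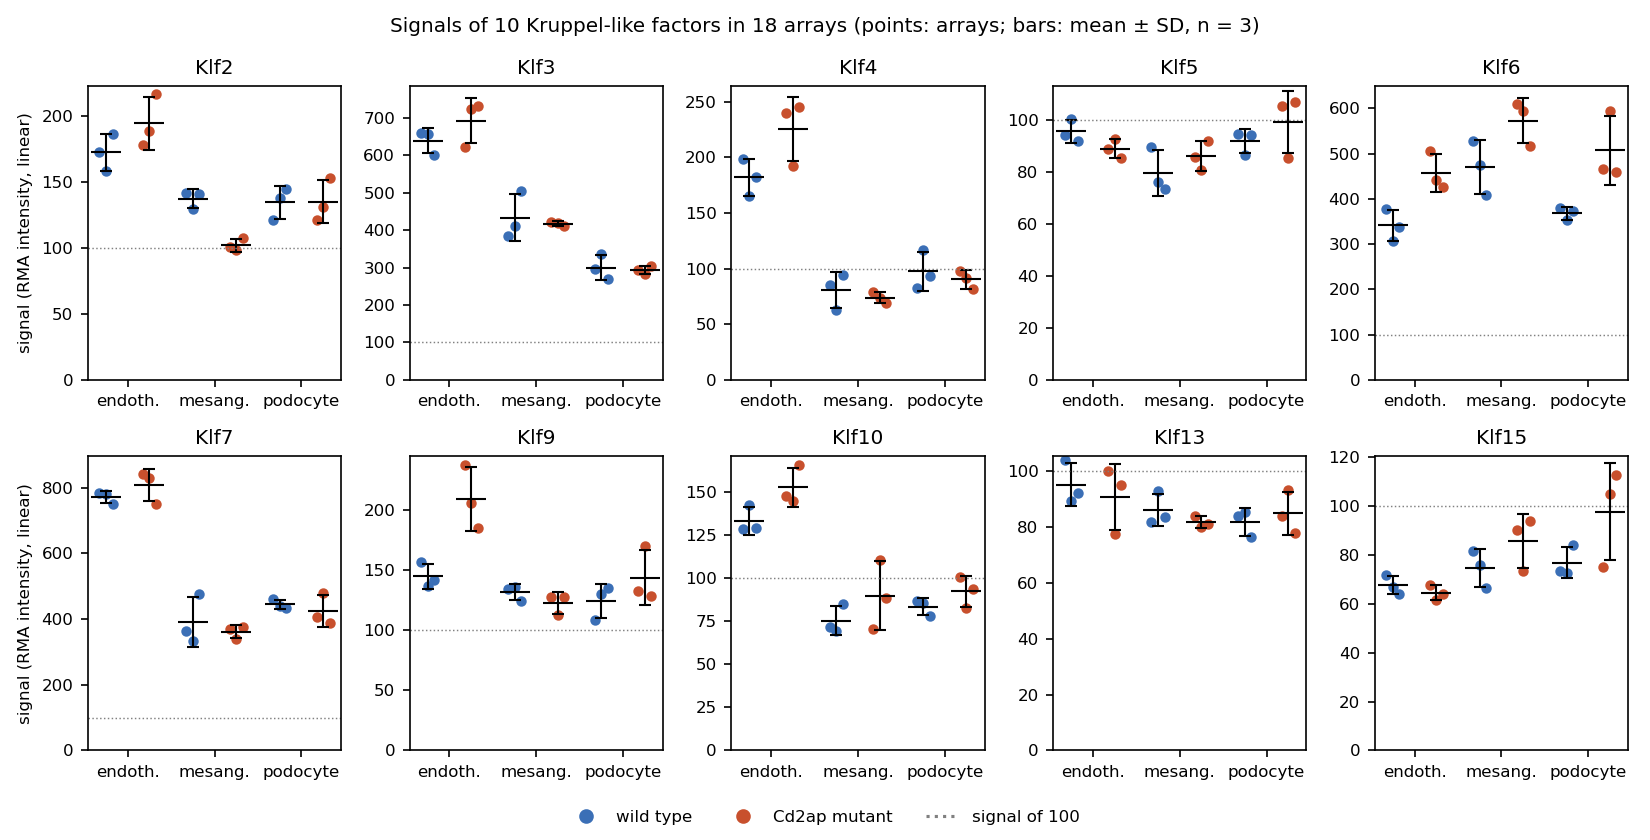
Signal of each Kruppel-like factor in the 18 arrays on a linear axis, with points for arrays and bars for the mean and SD of 3 arrays, wild type in blue and Cd2ap mutant in red. Klf2, Klf3, Klf4, Klf7 and Klf10 are highest in endothelial cells of both genotypes, and Klf5, Klf13 and Klf15 lie near the dotted line at a signal of 100 or under it in every group.

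Klf7, a widely expressed member of the family first studied in neurons, had signals of 784, 782 and 751 in wild type endothelial arrays A, B and C. It had signals of 363, 333 and 477 in wild type mesangial cells and of 461, 439 and 434 in wild type podocytes. The endothelial arrays all lay above the other 6, and mesangial array C was the highest of its group. Over all clusters tested, all endothelial arrays lay above all podocyte arrays for 27.7% and above all mesangial arrays for 24.3%, so such a gap is common here, for the members below as well. The difference from endothelial cells was -0.998 (SE 0.13, adjusted p = 0.000267) on the log2 scale in mesangial cells and -0.80 (SE 0.13, adjusted p = 0.000857) in podocytes. Without mesangial array C the first of these was -1.15 with an adjusted p of 1.41e-05. Podocytes and mesangial cells, which differed by 0.20 (adjusted p = 0.261), were not separated, but without mesangial array C podocytes were higher by 0.35 (adjusted p = 0.0224).

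Klf3, the repressor, declined in steps from endothelial cells to mesangial cells to podocytes. Its wild type signals were 659, 656 and 599.9 in endothelial cells, 385, 411 and 504 in mesangial cells and 295, 335 and 269 in podocytes. No array of a group overlapped with those of another, and podocyte arrays lay wholly below mesangial arrays for 26.5% of all clusters. Mesangial cells were lower than endothelial cells with a log2 difference of -0.57 (SE 0.12, adjusted p = 0.00646), and podocytes were lower with one of -1.09 (SE 0.12, adjusted p = 0.000111). Podocytes were also lower than mesangial cells, with a difference of -0.53 (SE 0.12, adjusted p = 0.011), which was -0.41 (adjusted p = 0.028) without mesangial array C. The second Klf3 cluster was dim, with a mean signal of 82.4 over the 18 arrays, and when both clusters were averaged the podocyte to mesangial difference was -0.24 with an adjusted p of 0.0782, so this call rests on the brighter cluster.

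Klf4 showed the widest gap between cell types among the members. Its signals were 199, 166 and 182 in wild type endothelial cells, 85.3, 62.6 and 94.2 in wild type mesangial cells and 82.4, 116 and 93.8 in wild type podocytes. Only endothelial arrays stood clear of a signal of 100, which 1 podocyte array also passed. Mesangial array B lay under its array median of 63.8, so this gap is a difference from dim signals. The difference from endothelial cells was -1.19 (SE 0.17, adjusted p = 0.000631) in mesangial cells, or -1.31 (adjusted p = 0.000402) without array C. In podocytes it was -0.91 (SE 0.17, adjusted p = 0.00239). The 2 lower groups overlapped and did not differ by the test (adjusted p = 0.254).

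Klf2, its closest relative in endothelial function, differed less. Its signals were 173, 159 and 186 in wild type endothelial cells, 142, 129 and 141 in mesangial cells and 121, 138 and 145 in podocytes. The endothelial arrays lay above the other 6, which overlapped with each other. The differences from endothelial cells were -0.33 (SE 0.10, adjusted p = 0.0355) in mesangial cells and -0.36 (SE 0.10, adjusted p = 0.0192) in podocytes. Both calls were narrow. The mesangial call was lost in 6 of the 16 alternatives, namely with array medians subtracted (-0.27, adjusted p = 0.0584) and without any 1 of 5 of the arrays, mesangial array C among them (-0.35, adjusted p = 0.0564), and the podocyte call was lost without endothelial array C (-0.30, adjusted p = 0.0707) or podocyte array A (-0.28, adjusted p = 0.0666).

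Klf10, the TGF-beta inducible member, had signals of 128, 143 and 129 in wild type endothelial cells. It stayed under 100 in all wild type mesangial arrays (71.5, 69.4 and 85.1) and podocyte arrays (86.9, 85.7 and 78.1). The endothelial arrays lay above all others, and the gene passed the signal minimum through them alone. The log2 difference was -0.83 (SE 0.10, adjusted p = 0.000251) in mesangial cells, or -0.92 (adjusted p = 0.00011) without array C, and -0.67 (SE 0.10, adjusted p = 0.000726) in podocytes. With no signal minimum the adjusted p was 0.000474 and 0.00106.

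Klf6 was the member with the opposite order. Its signals were 527, 474 and 408 in wild type mesangial cells, 378, 308 and 338 in endothelial cells and 381, 352 and 372 in podocytes. The mesangial arrays lay above those of both other groups, which overlapped, and mesangial arrays lay wholly above endothelial arrays for 22.7% of all clusters. Mesangial cells exceeded endothelial cells by a log2 difference of 0.46 (SE 0.12, adjusted p = 0.014), or 0.56 (adjusted p = 0.00539) without mesangial array C, and the call was lost without mesangial array A (0.37, adjusted p = 0.0513) or endothelial array B (0.39, adjusted p = 0.0544). Podocytes had a difference of -0.34 (SE 0.12, adjusted p = 0.0522) from mesangial cells, which passed without mesangial array C at -0.44 (adjusted p = 0.0198).

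Klf9 and the low members showed no called difference between wild type cell types in the reported fit. Klf9 signals were 157, 136 and 142 in endothelial cells, 135, 136 and 124 in mesangial cells and 108, 129.6 and 135 in podocytes, so the endothelial arrays lay above the others by a narrow margin that is under 1 unit between the closest pair, with intervals of -0.38 to 0.10 for mesangial cells and -0.47 to 0.01 for podocytes on the log2 scale. Klf5, a factor of proliferating epithelium, ranged from 73.5 to 106.9 over all 18 arrays. Its difference of wild type mesangial from endothelial cells was -0.27 (adjusted p = 0.065), which passed in 1 of 13 alternatives (adjusted p = 0.0263). Klf13 ranged from 76.3 to 103.9 and Klf15 from 61.7 to 113. These 3 passed a signal of 100 in 3, 2 and 2 arrays respectively, so values given for them rest on dim signals. The Klf15 arrays above 100 were mutant podocyte arrays B and C.

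**Figure D3:**
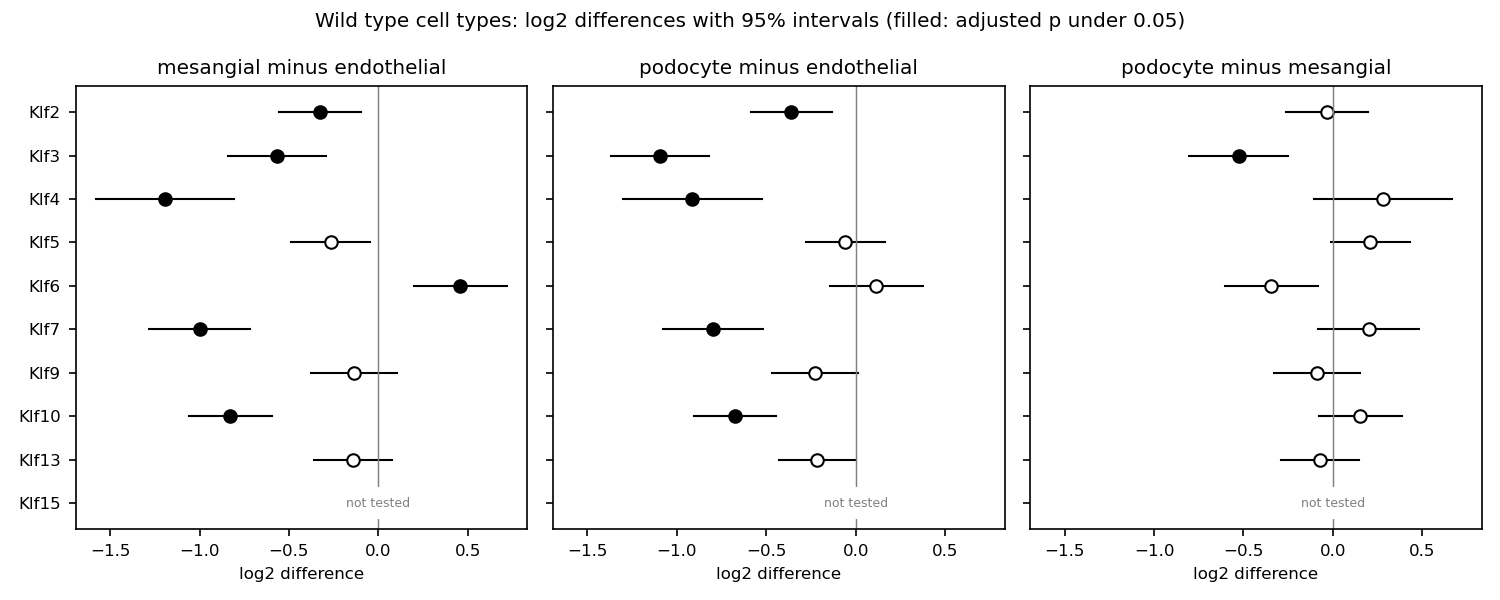
Log2 differences between wild type cell types for each member, with 95% intervals from the limma fit and filled points where the adjusted p was under 0.05. Klf2, Klf3, Klf4, Klf7 and Klf10 lie to the left of 0 in both comparisons with endothelial cells, and Klf6 lies to the right in the comparison of mesangial with endothelial cells.

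In the mutant arrays, which these tests did not use, the order was described without a test. The mean log2 signal of mutant endothelial minus mutant mesangial cells was 0.93 for Klf2, 0.72 for Klf3, 1.61 for Klf4, 1.16 for Klf7 and 0.79 for Klf10. Against mutant podocytes it was 0.53 for Klf2, 1.23 for Klf3, 1.32 for Klf4, 0.93 for Klf7 and 0.73 for Klf10. These 5 members were thus highest in endothelial cells with the mutation as well. Klf6 was again higher in mesangial than endothelial cells, at -0.32 for endothelial minus mesangial cells, while Klf9 had a difference of 0.77, against 0.14 in the wild type arrays.

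The endothelial members were set beside the endothelial content of the other arrays. All 7 endothelial markers were lower in wild type mesangial than in endothelial cells by the test, with a median difference of -3.20. In podocytes 4 of 7 were lower, with a median of -1.94. Immediate early genes, which rise when tissue is dissociated, were read as well. Of 12 tested, 7 were lower in wild type mesangial than endothelial cells and 7 were lower in podocytes than endothelial cells, with 0 higher in either, where 15.9% and 21.9% of all clusters were lower, and Jun was at -1.47 and -0.70 and Fos at -0.88 and -0.68. Of the 14 immediate early genes listed, 11 reached a signal of 100 in all 3 wild type endothelial arrays. In mesangial cells 6 did and in podocytes 9. The signal minimum can thus favour lower values outside endothelial cells, and counts with no minimum are not given for this list. The part of the endothelial markers and of the immediate early genes in the Klf differences was not tested.

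The kinases and MEF2 factors above Klf2 and Klf4 were read as well. Of 6 genes tested, 4 were lower in podocytes than in endothelial cells and 2 in mesangial than in endothelial cells, with none higher in either, where 21.9% and 15.9% of all clusters were lower. Mef2a, a MEF2 factor, had a difference of -0.45 (SE 0.09, adjusted p = 0.00459) in mesangial cells and -0.99 (SE 0.09, adjusted p = 3.38e-05) in podocytes. Mef2c, a regulator of vascular development, was -1.20 in podocytes (adjusted p = 4.85e-05), and Map3k3, the kinase at the top of the cascade, was -0.56 in mesangial cells and -0.78 in podocytes (adjusted p = 0.0066 and 0.000863).

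Of 13 genes listed as known targets of Kruppel-like factors, 10 were tested between wild type cell types. In podocytes 5 were lower and 1 was higher than in endothelial cells, where 21.9% of all clusters were lower and 16.9% higher. In mesangial cells 5 were lower and 2 were higher, against 15.9% and 16.1%. With no signal minimum, where all 13 were tested, these counts did not change. Nos3, the endothelial nitric oxide synthase induced by Klf2, was -0.80 in mesangial cells and -0.57 in podocytes (adjusted p = 0.000282 and 0.0017). It reached a signal of 100 in wild type endothelial arrays alone, where the highest was 123, and with no signal minimum, a fit run for these lists after seeing the data, the adjusted p was 0.000495 and 0.00221. The sphingosine 1-phosphate receptor S1pr1 was -1.59 and -1.66 (adjusted p = 0.00155 and 0.000971). Thbd, the anticoagulant receptor thrombomodulin, was -1.75 in mesangial cells (adjusted p = 0.00678), where array C had a signal of 198 against 72.3 and 53.6 in arrays A and B. Plau, the urokinase protease, ran the other way, at 3.07 in mesangial cells and 1.21 in podocytes (adjusted p = 2.95e-06 and 0.000996). Of 7 cofactors, 2 were lower in podocytes than in endothelial cells, Hdac2 with a difference of -0.40 (SE 0.10, adjusted p = 0.01) and the Klf3 partner Ctbp2 with one of -0.25 (SE 0.09, adjusted p = 0.04999), and 0 differed between mesangial and endothelial cells.

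The mutation was examined next by comparing Cd2ap mutant with wild type arrays within each cell type. A screen modelled on the study's methods was applied to the 6 arrays of a cell type. It asked for a fold change over 1.5 and a moderated t-test p under 0.05, among clusters that reached a signal of 100 in some array. Taking that p from limma and without adjustment was a choice made here. No member passed. In mesangial cells 0 of 6 tested members were called, against 5.19% of all clusters, in podocytes 0 of 9, against 5.61%, and in endothelial cells 0 of 9, against 3.82%. At an adjusted p under 0.05 the counts were also 0, where the shares of all clusters were 2.92%, 0.0578% and 1.29%. The podocyte share rests on mutant array A, without which 344 clusters passed in place of 7. The unadjusted p alone was under 0.05 for 1, 1 and 3 members, against 21.7%, 14.3% and 18.5% of all clusters. The median difference of the members was -0.07 in mesangial cells, 0.11 in podocytes and 0.17 in endothelial cells, against -0.02, -0.04 and 0.07 over all clusters. By RNA-seq, which was not analysed here, the paper reports Klf6, Klf9, Klf10, Klf11, Klf15 and Klf16 as up-regulated in mutant podocytes. For the members among these, the podocyte array differences were 0.45 for Klf6, 0.21 for Klf9, 0.14 for Klf10 and 0.33 for Klf15.

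**Figure D4:**
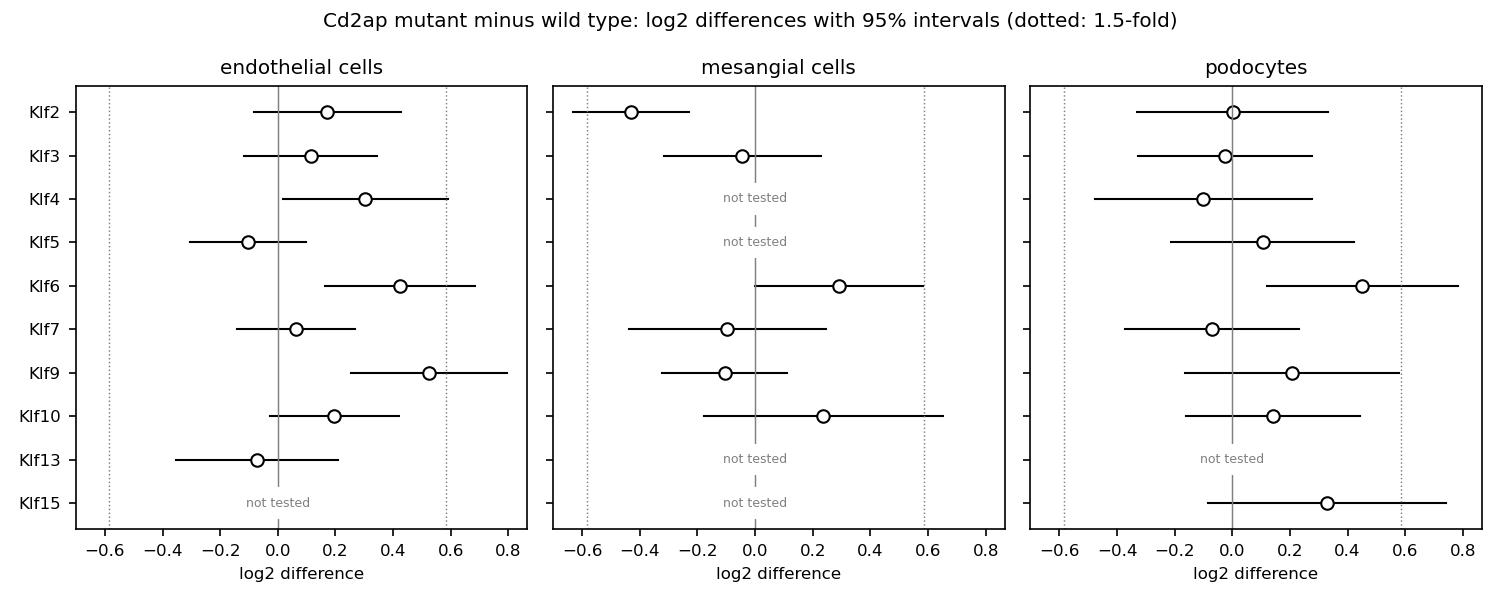
Log2 differences between Cd2ap mutant and wild type arrays for each member and cell type, with 95% intervals and dotted lines at a 1.5-fold change. No point lies beyond the dotted lines, Klf9 in endothelial cells comes nearest at 0.52, and Klf6 lies to the right of 0 in the 3 cell types.

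Klf9 had the largest difference of any member. Its signals in endothelial cells were 237, 205 and 185 in the mutant arrays and 157, 136 and 142 in the wild type arrays. The groups did not overlap, as was the case with mutant arrays higher for 17.7% of all clusters in this comparison, and mutant array A was the highest. The log2 difference was 0.52 (SE 0.12, interval 0.25 to 0.80), with a p of 0.00214 and an adjusted p of 0.0828. It passed the screen at 0.60 when array medians were subtracted and at 0.61 without mutant array C, and the adjusted p ranged from 0.0466 to 0.258 over the 13 alternatives, the lowest with all 18 arrays in 1 fit. The second Klf9 cluster, with a mean signal of 88.7, had endothelial signals of 151, 107 and 104 in the mutant and 102, 75.3 and 101 in the wild type arrays, which did not overlap either, with a difference of 0.37 (adjusted p = 0.309). In mesangial cells the signals were 128, 112 and 128 in the mutant and 135, 136 and 124 in the wild type arrays, with an interval of -0.32 to 0.11. In podocytes the signals were 132, 169.8 and 129 in the mutant and 108, 129.6 and 135 in the wild type arrays, with mutant array B the highest, and the interval was -0.16 to 0.58.

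Other genes induced by glucocorticoids were read beside Klf9, since this gene is one of that class. Of 5 such genes 3 passed the screen as higher in mutant endothelial cells, 4 in mutant podocytes and 2 in mutant mesangial cells, where 2.96%, 1.26% and 2.08% of all clusters passed as higher, and 0 of the 5 had an adjusted p under 0.05. In endothelial cells and podocytes Fkbp5 and Zbtb16 reached the signal minimum through mutant arrays alone, as did Zbtb16 in mesangial cells, and with no signal minimum the counts were again 3, 4 and 2. Of the 5 genes, 2 had negative differences in mesangial cells, 1 in podocytes and 0 in endothelial cells. Without wild type mesangial array C the mesangial count was 3. Fkbp5, a co-chaperone of the glucocorticoid receptor, had endothelial signals of 395, 99.4 and 163 in the mutant and 79.3, 66.9 and 63.7 in the wild type arrays. In podocytes its signals were 104, 483 and 373 in the mutant and 95.2, 73.7 and 64.5 in the wild type arrays. Zbtb16, a transcription factor of the same class, differed by 1.29 in endothelial cells and 1.05 in podocytes (adjusted p = 0.113 and 0.233). The part of a hormone response in the Klf9 values was not tested.

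Klf6 had a positive difference in each cell type. In endothelial cells its signals were 505, 441 and 427 in the mutant and 378, 308 and 338 in the wild type arrays. In podocytes they were 467, 595 and 459 in the mutant and 381, 352 and 372 in the wild type arrays. In both cell types all mutant arrays lay above all wild type arrays, as did 17.7% of all clusters in endothelial cells and 6.97% in podocytes. The log2 difference was 0.42 (interval 0.16 to 0.69, adjusted p = 0.128) in endothelial cells and 0.45 (interval 0.12 to 0.78, adjusted p = 0.233) in podocytes. Over the 13 alternatives the adjusted p ranged from 0.0734 to 0.343 in endothelial cells and from 0.0411, with all 18 arrays in 1 fit, to 0.567 in podocytes. In mesangial cells the signals were 609.8, 593 and 516 in the mutant and 527, 474 and 408 in the wild type arrays. These groups overlapped, and the difference was 0.29 (interval -0.002 to 0.58, adjusted p = 0.233), or 0.19 without wild type mesangial array C. Mutant podocyte array B had the highest Klf6 signal among podocyte arrays. Of the immediate early genes tested, 3 of 11 passed the screen as higher in mesangial cells, 1 of 13 in podocytes and 2 of 13 in endothelial cells, where 2.08%, 1.26% and 2.96% of all clusters did, and 0 passed as lower. Egr1 passed in the 3 cell types, by 0.80 in mesangial cells (adjusted p = 0.0396), 0.95 in podocytes (adjusted p = 0.143) and 0.69 in endothelial cells (adjusted p = 0.2). Without wild type mesangial array C the mesangial Egr1 difference was 0.76 (adjusted p = 0.0732), which passed the screen but not the adjusted threshold.

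Klf2 was the only member with an unadjusted p under 0.05 in mesangial cells. Its signals were 101, 98.2 and 107 in the mutant and 142, 129 and 141 in the wild type arrays. The mutant arrays all lay below the wild type arrays, as did those of 16.3% of all clusters. The difference was -0.43 (SE 0.08, interval -0.63 to -0.23) with a p of 0.0015 and an adjusted p of 0.0506. The adjusted p ranged from 0.032 to 0.169 over the 13 alternatives and was under 0.05 in 5 of them, while the fold change stayed under 1.5 in each. Without wild type mesangial array C the difference was -0.41 with an adjusted p of 0.0999. In the same comparison 2 of 7 endothelial markers passed the screen as lower, and the median of the 7 was -0.53. That median rests on wild type array C and was 0.43 without it, again with 2 of 7 lower. Of the podocyte markers 1 of 6 was lower with a median of -0.76, which was 0.12 over the 3 still tested without array C. Of the mesangial markers 2 of 6 passed as lower with a median of -0.53, or -0.52 without array C, and 1 of the 6 had a positive difference. Of the smooth muscle markers 2 of 4 passed as higher with a median of 0.51, and 1 of 4 did without array C. The part of these cells in the Klf2 difference was not tested. In endothelial cells the Klf2 signals were 178, 189 and 217 in the mutant and 173, 159 and 186 in the wild type arrays, which overlapped (interval -0.08 to 0.43). In podocytes the difference was 0.00 with an interval of -0.33 to 0.33.

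Klf4 in endothelial cells had signals of 239, 192 and 245 in the mutant and 199, 166 and 182 in the wild type arrays. Mutant array B lay within the wild type range, and the difference was 0.30 (interval 0.02 to 0.59, adjusted p = 0.256). In podocytes its signals were 97.7, 91.6 and 81.6 in the mutant and 82.4, 116 and 93.8 in the wild type arrays, with an interval of -0.48 to 0.27, and it was too dim to be tested in mesangial cells. Klf10 in endothelial cells had signals of 148, 145 and 166 in the mutant and 128, 143 and 129 in the wild type arrays. These groups did not overlap, as in 17.7% of all clusters with mutant arrays higher, and the difference was 0.20 with an adjusted p of 0.321. In mesangial cells Klf10 passed the signal minimum through mutant array B alone, at 110.5, and the interval was -0.18 to 0.65.

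Klf3 and Klf7 had small differences in every cell type. For Klf3 the mutant signals were 622, 723 and 730.1 in endothelial cells, 423, 418 and 411 in mesangial cells and 294, 282 and 305 in podocytes, which overlapped with the wild type arrays in each case. Its intervals were -0.12 to 0.35, -0.32 to 0.23 and -0.33 to 0.28. For Klf7 the mutant signals were 842, 831 and 752 in endothelial cells, 371, 339 and 376 in mesangial cells and 407, 480.1 and 388 in podocytes. Its intervals were -0.14 to 0.27, -0.44 to 0.24 and -0.37 to 0.23, so a 1.5-fold change, which is 0.58 on the log2 scale, lay outside all 6 intervals.

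In podocytes these values stood beside lower signals of endothelial markers. All 7 endothelial markers passed the screen as lower in mutant podocyte arrays, with a median difference of -1.77, although 0 had an adjusted p under 0.05. Of the mesangial markers 4 of 6 passed as lower, with a median of -0.85, and 1 of 3 smooth muscle markers tested passed as higher, with summed signals of 2181, 1683 and 555 in mutant arrays A, B and C against 538 to 635 in the wild type arrays. Their part in the podocyte values was not tested. The 5 members that were higher in endothelial cells had podocyte differences of 0.00 for Klf2, -0.03 for Klf3, -0.10 for Klf4, -0.07 for Klf7 and 0.14 for Klf10. Without mutant podocyte array A, which held the most endothelial and erythroid signal of the mutant podocyte arrays, 0 members passed and the differences of Klf2, Klf3, Klf4 and Klf7 were 0.08, -0.03, -0.16 and -0.04. Klf10 was not tested there, since it reached the signal minimum in podocytes through mutant array A alone, at 100.7.

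Klf15, the podocyte differentiation factor, had podocyte signals of 75.1, 105 and 113 in the mutant and 73.4, 72.7 and 84.1 in the wild type arrays. Mutant array A lay within the wild type range and arrays B and C above it, and the gene passed the signal minimum through these 2 arrays alone. The difference was 0.33 (SE 0.18, interval -0.09 to 0.74, adjusted p = 0.44), or 0.51 without mutant array A (adjusted p = 0.0987). Klf5 had intervals of -0.21 to 0.42 in podocytes and -0.30 to 0.10 in endothelial cells, and Klf13 of -0.35 to 0.21 in endothelial cells.

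Whether the effect of the mutation differed between cell types was tested by interaction contrasts in 1 fit of the 18 arrays, in which all 10 members entered. No member passed an adjusted p under 0.05 in any of the 3 contrasts, where 0.717% (podocyte minus mesangial), 1.07% (endothelial minus mesangial) and 2.11% (endothelial minus podocyte) of all clusters did. At an unadjusted p under 0.05 the members were Klf2 in the first contrast and Klf2 and Klf9 in the second, with 0 in the third, against 12%, 15.9% and 23.4% of all clusters. The difference between the endothelial and mesangial effects was 0.60 (SE 0.15, adjusted p = 0.0751) for Klf2 and 0.63 (SE 0.18, adjusted p = 0.103) for Klf9. For Klf2 the contrast passed at 0.69 (adjusted p = 0.0215) when array medians were subtracted, and at 0.60 (adjusted p = 0.0444) without mutant podocyte array C, which enters only the estimate of the spread. It passed in these 2 of 24 alternatives, and its highest adjusted p was 0.286. Without wild type mesangial array C it was 0.58 (adjusted p = 0.138). For Klf15 the endothelial minus podocyte contrast was -0.40 (SE 0.20, adjusted p = 0.239), and it passed at -0.57 (adjusted p = 0.0329) without mutant podocyte array A. In that fit Klf15 reached a signal of 100 only in the 2 mutant podocyte arrays left, its other signals being dim. With no signal minimum as well, a setting chosen after seeing the data, the adjusted p of Klf15 was 0.0315. There 2986 of all 28856 clusters passed, so such a call was common without this array.

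Among the 15 other Klf and Sp genes, 1 of 8 tested passed the screen in mesangial cells and in podocytes, and 0 of 7 in endothelial cells, against 5.19%, 5.61% and 3.82% of all clusters. That gene was Klf12, a repressor of the AP-2 alpha gene. Its mesangial signals were 355, 297 and 289 in the mutant and 559, 597 and 581 in the wild type arrays. In podocytes they were 81.3, 41.2 and 54.6 in the mutant and 194, 184 and 166 in the wild type arrays. All mutant arrays lay below all wild type arrays, as did those of 16.3% of all clusters in mesangial cells and 14.3% in podocytes. The log2 difference was -0.89 (SE 0.10, adjusted p = 0.0134) in mesangial cells. In podocytes the gene passed the signal minimum through wild type arrays alone and 2 of the 3 mutant signals lay under the array medians, so the value of -1.67 (SE 0.24, adjusted p = 0.102) is a difference from a dim signal, and with no signal minimum its adjusted p was 0.187. Klf12 was thus past the adjusted threshold in mesangial cells only, while the difference between the podocyte and mesangial effects was -0.78 with an adjusted p of 0.419. In endothelial cells the signals were 202, 416 and 196 in the mutant and 465, 313 and 423 in the wild type arrays, which overlapped through mutant array B (adjusted p = 0.293). Klf12 was highest in wild type mesangial cells, which exceeded endothelial cells by 0.55 (SE 0.14, adjusted p = 0.0146), and lowest in podocytes, at -1.13 (SE 0.14, adjusted p = 0.000207) from endothelial cells. Between wild type cell types 2 of 8 tested were called in podocytes against mesangial cells, where 27.9% of all clusters were. In podocytes 1 was lower and 1 higher than in endothelial cells, against 21.9% and 16.9%, and in mesangial cells 1 was lower and 1 higher, against 15.9% and 16.1%. Beside Klf12, Sp1, the general activator of GC-box promoters, was lower in wild type podocytes than mesangial cells with a difference of -0.30 (SE 0.09, adjusted p = 0.0366), Sp2 was higher in podocytes than endothelial cells by 0.49 (SE 0.13, adjusted p = 0.0161), and Klf11, a relative of Klf10, was lower in mesangial than endothelial cells with a difference of -0.39 (SE 0.12, adjusted p = 0.0309).

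Genes of the wider pathway were read against the same shares of all clusters, 5.19% in mesangial cells, 5.61% in podocytes and 3.82% in endothelial cells. Of the 6 upstream genes, 1 passed in podocytes, Mef2c at -0.70 (adjusted p = 0.295), and 0 in the other cell types. Of the 7 cofactors 0 passed in any cell type. Of the targets, 1 of 10 tested passed in mesangial cells, 2 of 9 in podocytes and 1 of 9 in endothelial cells. Cdkn1a, the cell cycle inhibitor p21 that Klf4 and Klf6 activate, had endothelial signals of 676, 688 and 526 in the mutant and 335, 281 and 286 in the wild type arrays. The log2 difference was 1.06 (SE 0.13, adjusted p = 0.0105). Plau had mesangial signals of 637, 629 and 699 in the mutant and 331, 470.3 and 312 in the wild type arrays, a difference of 0.84 (SE 0.16, adjusted p = 0.0497). Without wild type mesangial array C it was 0.73 (adjusted p = 0.0824), which passed the screen but not the adjusted threshold. In podocytes the targets that passed were S1pr1, at -1.05 (adjusted p = 0.216), and the TGF-beta coreceptor endoglin, Eng, at -1.34 (adjusted p = 0.269). All 7 endothelial markers passed as lower in the same comparison, with a median of -1.77. Their part in the podocyte values of S1pr1, Eng and Mef2c was not tested.

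The genes whose log2 signals ran most like each member over the 18 arrays were found among 11132 clusters with 1 symbol. The measure was Pearson's r, given as a description, and all genes share the 18 arrays and their groups. Klf7 was closest to She, Dock9 and Shank3 (r = 0.99 for each), Klf4 to Ahr, She and Robo4 (r = 0.98, 0.98 and 0.97), and Klf3 to Notch1, Srp19 and Lama4 (r = 0.97 for each). Klf2 was closest to Zfp366, Ankrd29 and Arhgef10 (r = 0.91, 0.90 and 0.90) and Klf10 to Hmcn1, Cd9 and Plaur (r = 0.94, 0.94 and 0.93). Robo4 is a guidance receptor of endothelium and Notch1 a receptor that acts in arterial fate. Klf6 was closest to the matricellular gene Cyr61, followed by Cfl2 and Rbpms (r = 0.86, 0.85 and 0.85), and Klf9 to Fam107a, Aqp11 and Gpr146 (r = 0.90, 0.89 and 0.89). Klf13 was closest to Nfatc1 (r = 0.77) and Klf15 to Olfr149 (r = 0.93).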

How the data were processed

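RNA from sorted glomerular cells was hybridized to 18 Affymetrix Mouse Gene 1.0 ST arrays. The deposited intensity values are linear signals that, per the labels, the authors made by RMA with Expression Console, while the study's methods name GeneSpring. The series record names Exon arrays instead, which the file header does not. A further 18 deposited columns, marked normalized, were not used. The file header names mouse build mm9 annotation, whereas promoters came from RefSeq on GRCm38.p6, and no coordinates were converted. Columns were matched to groups by transgene and genotype mark, and the letters A, B and C follow column order.

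The members, lists, tests and alternatives were chosen with earlier results of these data known. Named genes were the 10 members, list genes called in a comparison or on which a result turns, and the 3 clusters most like each member. For Klf13 and Klf15 only the closest cluster was named. Genes were compared with limma 3.58.1 (lmFit and eBayes) in R 4.3.3 on log2 signals after a minimum of 100 in at least 1 array, without covariates, and p-values were adjusted by Benjamini-Hochberg over all clusters tested. The fit was tested on simulated data. With 3 arrays per group, their number limits the precision. Alternatives covered the signal minimum, eBayes settings, scaling, averaging of clusters, the samples in the fit and leaving out each array. RNA-seq data were not analysed here, and 1 podocyte marker and the genes most like Klf5 are not reported here.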

Additional observations from a re-analysis of the deposited data

How the results depend on the processing

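No member called in a comparison changed direction there under any alternative, and 8 of the 12 calls of members between wild type cell types passed in all 16 alternatives. The limits are the number of arrays, the low signal of Klf5, Klf13 and Klf15, wild type mesangial array C and mutant podocyte array A. The count of called members in wild type podocytes against mesangial cells, 1 in the report, was 2 with a signal minimum in all 3 arrays of a group, 2 with intensity trend and robust eBayes, 2 with array medians subtracted, 0 with the mean over all clusters of a gene, and 1 to 3 when 1 array was left out, the highest count being without wild type mesangial array C. In the genotype comparison of endothelial cells it was 1 with array medians subtracted and 0 to 1 when 1 array was left out. In the interaction of endothelial and mesangial effects it was 1 with array medians subtracted and 0 to 1 when 1 array was left out, and 0 to 1 for endothelial and podocyte effects. Leaving out 1 array gave 4 to 5 called members for wild type podocytes against endothelial cells and 5 to 6 for mesangial against endothelial cells. No member passed the screen under any alternative in the genotype comparisons of mesangial cells and podocytes and none was called in the interaction of podocyte and mesangial effects. Without mutant podocyte array A the endothelial minus podocyte count was 1 (Klf15), and without mutant podocyte array C the endothelial minus mesangial count was 1 (Klf2).

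Over all clusters, an adjusted p under 0.05 in place of the screen gave 335 calls against 595 in mesangial cells, 7 against 679 in podocytes and 146 against 433 in endothelial cells. These adjusted counts were 480, 837 and 187 with all 18 arrays in 1 fit, and 50 to 304, 0 to 344 (the highest without mutant podocyte array A) and 49 to 253 when 1 array was left out. They were 729, 9 and 226 with intensity trend and robust eBayes, and 578, 8 and 241 with a signal minimum in all 3 arrays of a group. With array medians subtracted they were 297, 4 and 275, and with no signal minimum 258, 0 and 83. For the screen, leaving out 1 array gave 539 to 662, 575 to 1235 (the highest without mutant podocyte array A) and 367 to 554 calls. For the interactions it gave 44 to 423 calls against 97 for podocyte minus mesangial, 85 to 251 against 145 for endothelial minus mesangial and 30 to 1865 against 285 for endothelial minus podocyte, the highest count of each being without mutant podocyte array A and the lowest without mutant mesangial array B, mutant endothelial array A and mutant endothelial array A. The last 2 moved to 274 and 967 with array medians subtracted, and the last to 78 with quantile normalization. The median of all clusters in the last contrast was 0.11 as reported, 0.22 with array medians subtracted and 0.00 with quantile normalization. The split into higher and lower calls in endothelial cells was 335 and 98 as reported, 440 and 61 with array medians subtracted and 261 and 137 with quantile normalization, in podocytes 153 and 526 against 217 and 438 with quantile normalization, and in wild type podocytes against mesangial cells 1373 and 2126 against 1039 and 2810 with array medians subtracted. For the interactions it was 28 and 69 against 68 and 75 with quantile normalization (podocyte minus mesangial), 96 and 49 against 226 and 48 with array medians subtracted and 59 and 51 with quantile normalization (endothelial minus mesangial), and 251 and 34 against 55 and 23 with quantile normalization (endothelial minus podocyte). The cause of these shifts was not tested.

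No paired analysis was possible because the columns carry no replicate numbers that link arrays across groups.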
